A study of Mus musculus with 12 samples.

Results

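The interleukins and their receptors were described across 4 fat depots of obese mice. Members were all genes whose symbol begins with Il followed by a digit, and 85 of the 47729 genes in the tables met that rule (83 symbols, since Il11ra2 stood under 3 identifiers). The set held 36 ligands, 40 receptor subunits, 4 antagonists or binding proteins, 3 decoy receptors and 2 other genes, namely the antisense transcript Il1bos and the amino acid oxidase Il4i1. RNA was sequenced from the fat of wild-type male C57BL/6J mice, given as 6 to 10 weeks of age, that ate a high-fat diet. There were 3 libraries each of interscapular brown fat (BAT), epididymal white fat (EWAT), inguinal white fat (IWAT) and retroperitoneal white fat (RWAT). Every library, in all 4 depots, was labelled as surgically denervated, so the comparisons are between depots and the effect of cutting the nerves was not tested. The labels do not say whether the libraries of a depot came from separate animals, and p-values therefore measure only the spread between these libraries.

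Interleukins are secreted signals between immune and tissue cells. Most are bound by pairs of receptor chains, some of which are shared: Il2rg serves the receptors for IL-2, IL-4, IL-7, IL-9, IL-15 and IL-21, Il6st (gp130) serves those for IL-6 and IL-11, and Il1rap serves those for IL-1, IL-33 and IL-36. Chains of the cytokine receptor class signal through JAK kinases and STAT factors, while IL-1 family receptors signal through Myd88 and NF-kappaB. In obese fat, macrophages are a known source of IL-1beta, IL-6 and IL-10, whereas IL-4, IL-13 and IL-33 are associated with lean fat.

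The libraries held 12933516 to 21106554 expected counts. The depot labels were set against marker genes. Among the BAT libraries, Ucp1, the heat-producing carrier of brown fat mitochondria, stood at 792.1 TPM (transcript abundance corrected for length) in BAT 1 and at 0.21 and 1.02 TPM in BAT 2 and BAT 3, and a list of 10 brown fat genes summed to 2031, 27.1 and 37.1 TPM, against 9.06 to 301.7 in white fat. Zic1 and Lhx8, transcription factors of the brown fat lineage in the same list, had 2.54, 8.97 and 6.88 TPM and 6.14, 7.47 and 7.88 TPM in the BAT libraries, above the white maxima of 0.59 and 2.70 TPM, so both stood above every white library in all 3 BAT libraries. The 2 genes were named after their values were seen. A list of 10 skeletal muscle genes summed to 561.2 TPM in RWAT 1 and 2292 TPM in RWAT 3, against 21.3 TPM in RWAT 2. The 10 macrophage and monocyte markers summed to 4934 to 10102 TPM in EWAT, 1381 to 2668 in IWAT, 3555 to 5596 in RWAT and 2294 to 3403 in BAT. The 10 pan-adipocyte markers summed to 1639 to 5791 TPM in EWAT and 23675 to 25805 TPM in IWAT, with no overlap.

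Receptors were the abundant members and ligands the scarce ones. Of the 40 receptor genes, 15 had a mean above 10 TPM, the scale on which genes were compared, whereas 3 of the 36 ligands did: Il1b, Il18 and Il33. The 5 most abundant members held 50.8% of the summed mean TPM of the set. The signal-transducing chain Il6st had the highest mean, 86.1 TPM, with a lowest value of 35.9, a median of 78.4 and a highest value of 161.9 over the 12 libraries. The shared IL-10 receptor chain Il10rb averaged 80.2 TPM (33.9, 71.5 and 136.9). The IL-1 receptor antagonist Il1rn averaged 67.8 TPM (1.27, 54.3 and 177.7), the IL-4 and IL-13 receptor chain Il4ra 63.0 TPM (14.5, 49.0 and 190.4) and the IL-11 receptor Il11ra1 60.8 TPM (33.1, 57.9 and 97.03). The ranges of these 5 genes overlapped, and Il1rn varied most among them. Next came the common gamma chain Il2rg at 28.2 TPM, the ligand-binding IL-10 receptor chain Il10ra at 22.8, the IL-33 receptor Il1rl1 at 21.9, the IL-1 receptor Il1r1 at 20.7, the IL-15 receptor chain Il15ra at 19.6, the IL-36 receptor Il1rl2 at 16.6 and the IL-13 receptor chain Il13ra1 at 16.5. Il11ra1 and Il2rg overlap the genes Galt and Gm20489 on the same strand, with which they may share reads. The mean of Il1rl1 rested on BAT 2, which held 128.0 TPM against 38.3 TPM in the next library and a median of 9.01.

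**Figure D1:**
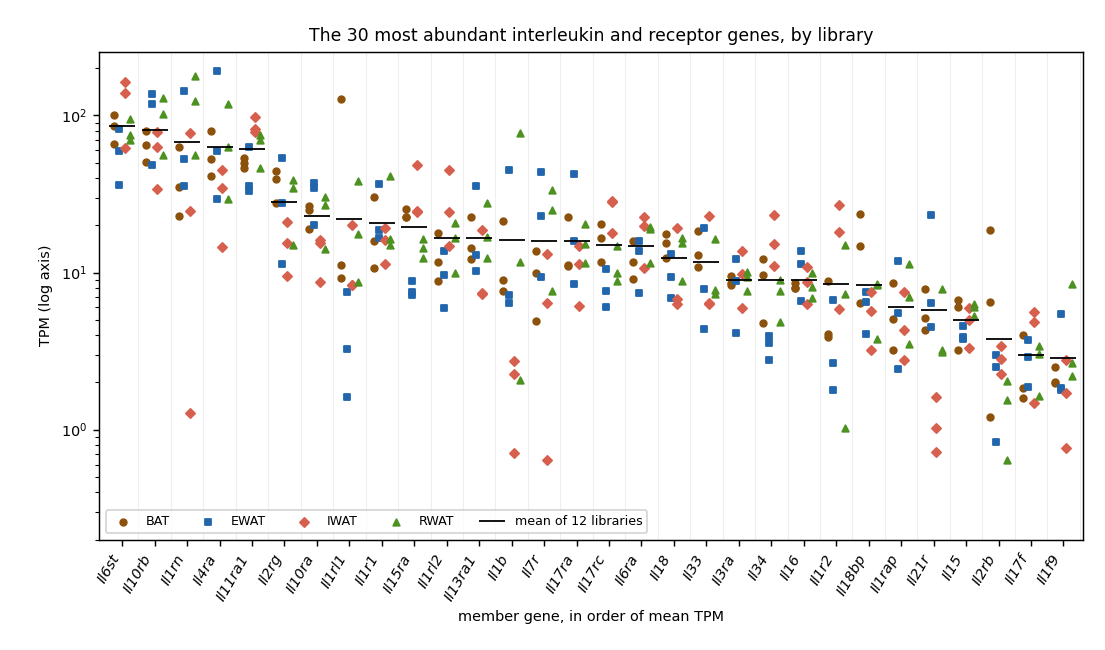
TPM (log axis) of the 30 members with the highest mean, 1 point a library coloured and shaped by depot, with a black bar at the mean of 12 libraries. Il6st, Il10rb, Il1rn, Il4ra and Il11ra1 lead, and Il1rl1 has 1 BAT library at 128.0 TPM.

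Among the ligands, Il1b averaged 16.04 TPM and ranged from 0.71 TPM in IWAT 1 to 76.7 TPM in RWAT 2. Il18, an IL-1 family cytokine, averaged 12.3 TPM (6.33 to 19.3) and Il33, an alarmin of stromal cells, 11.7 TPM (4.38 to 22.9). Il34, a ligand of the CSF-1 receptor, averaged 8.99 TPM, Il15 5.0 TPM, Il10 2.71 TPM, Il6 2.48 TPM and Il7 1.27 TPM. These 8 ligands had counts in all 12 libraries, and Il15 was the least variable of them at 3.23 to 6.71 TPM.

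Several ligands were near the detection limit although a receptor chain for them was abundant. Il4 had 62 counts over all 12 libraries and Il13 had 12, against a mean of 63.0 TPM for Il4ra. Il21 had 4 counts in 3 libraries, while its receptor Il21r averaged 5.74 TPM. Il17a had 1 count, whereas the receptor chains Il17ra and Il17rc averaged 15.89 and 15.03 TPM. Il17f, another ligand of these chains, was not near the limit, with a mean of 2.99 TPM (1.48 to 5.61). Il3, Il9, Il20, Il22, Il24, Il31, Il1f8, Il1f10 and the receptor-like Il1rapl2 had 0 counts in every library, which allows up to 0.0133 CPM (counts scaled to library size) each, taking 3 counts over the 12 libraries as the floor. At this depth their absence cannot be told from a level below that floor. Il11ra2 had fewer than 1 expected count under each of its 3 identifiers, which share reads, and gets no value of its own. In all, 53 members had a count in all 12 libraries and 52 passed the filter on low counts, among them 15 ligands, 32 receptors, 2 antagonists, 2 decoy receptors and Il4i1. Members that passed only through a depot where they were high are among those 52.

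Antagonists and decoys can be set against their targets within a library. Il1rn was above Il1b in 12 of 12 libraries on the TPM scale, with a ratio of 1.17 in EWAT 1 and 34.1 in IWAT 3 as the ends of the range. The decoy receptor Il1r2, which binds IL-1 without signalling, exceeded the signalling receptor Il1r1 in IWAT 1 (1.61 times) and IWAT 2 (1.40 times), and was at 0.0684 to 0.553 times Il1r1 in the other 10 libraries. Il18bp, the soluble antagonist of IL-18, was above Il18 in BAT 3 alone (ratio 1.34), with a lowest ratio of 0.386. Il10rb was above Il10ra in 12 of 12 libraries (2.04 to 5.05 times), and Il6st above Il6ra in 12 of 12 (3.85 to 7.27 times). These ratios compare genes inside a library and carry no test.

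Differences between depots were tested on counts with edgeR's quasi-likelihood test and Benjamini-Hochberg (BH) adjustment over the 18942 genes tested, at a threshold of 0.05. Values of a gene across libraries are given below as scaled CPM, that is CPM after TMM scaling of library sizes, because the TPM scale itself shifted between libraries, from -0.77 in EWAT 2 to 0.52 in IWAT 2 on a log2 scale relative to scaled CPM. In the test for any difference among the 4 depots, 1 of 52 tested members passed, Il21r (BH-adjusted p = 0.0346), where 0.211% of all tested genes did. That call was lost in 12 of 21 alternatives, which included limma-voom, the replicate block and leaving out any of 9 libraries (adjusted p 4.18e-09 to 0.157). In bulk tissue, fewer cells of a type and less RNA per cell cannot be told apart, here and in what follows.

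Il21r encodes the IL-21 receptor, a chain found mainly on lymphoid and myeloid cells that pairs with Il2rg. It had 1.83, 1.47 and 2.71 scaled CPM in IWAT, 32.7, 15.2 and 13.3 in EWAT, 11.2, 13.4 and 11.8 in BAT, and 6.14, 11.9 and 7.12 in RWAT. All 3 IWAT libraries lay below all 9 others, while BAT, EWAT and RWAT came close to each other or overlapped. IWAT against EWAT gave a log2 fold change of -3.35 ± 0.42 (SE, 3 libraries a depot) and a BH-adjusted p of 0.00726 in the edgeR test. The edgeR differences of IWAT from the other depots went the same way but did not pass, with 2.60 ± 0.41 for BAT against IWAT (BH-adjusted p = 0.103) and 2.07 ± 0.40 for RWAT against IWAT (0.125).

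Inguinal and epididymal fat were the only depot pair in which edgeR called members on the full data. That pair also had the most calls over all genes, 1710. Of the 52 tested members, 12 passed the edgeR test between IWAT and EWAT, 6 higher and 6 lower in IWAT, a share of the members above the 9.03% of all genes that passed, and 26 had an unadjusted p below 0.05 (29.7% of all genes). The median log2 fold change of the tested members was -0.34, against 0.02 over all genes, and 33 of 52 were negative. Lower in IWAT were the cytokines Il1a and Il6 and the receptors Il21r, Il10ra, Il10rb and Il4ra. Higher in IWAT were the receptors Il15ra, Il17rb, Il17rc, Il17rd and Il1rl2 and the ligand Il34. This result depended on single libraries: without IWAT 2, 0 members were called by edgeR (over all genes 16 calls were left of 1710), without IWAT 1 and without EWAT 3 only Il21r was, and without EWAT 1 the calls were Il15ra, Il17rc, Il21r, Il10ra and Il22ra1.

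**Figure D2:**
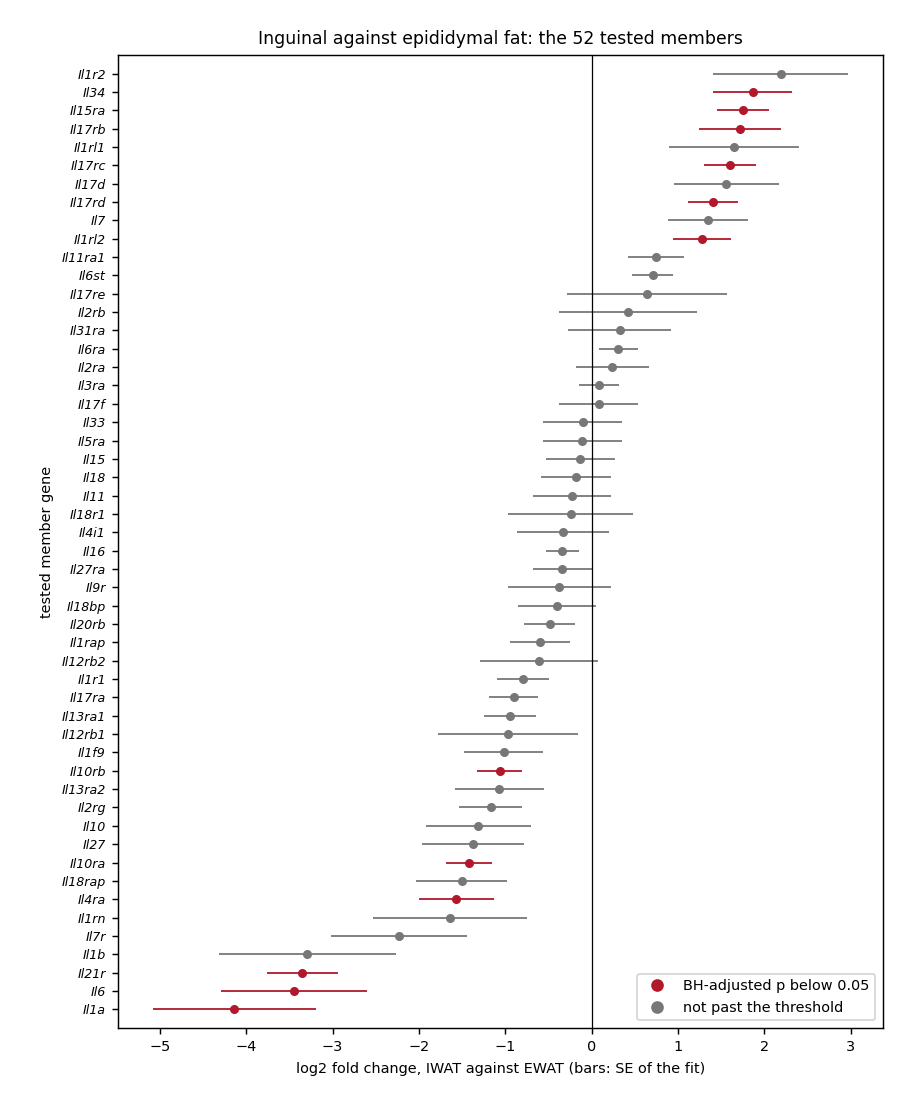
Log2 fold change of IWAT against EWAT for the 52 tested members, with bars of 1 SE from the edgeR fit and red points for BH-adjusted p below 0.05. The 12 red genes run from Il1a at -4.14 to Il34 at 1.87, and Il1b at -3.29 and Il1r2 at 2.19 are large but not past the threshold.

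Among the inflammatory ligands, Il6 had 0.196, 0.535 and 0.235 scaled CPM in IWAT, from 3, 12 and 4 counts, against 6.90, 2.63 and 1.51 in EWAT. The groups did not overlap, and EWAT 1 was the highest of all 12 libraries. Il6 fell in IWAT by 3.45 ± 0.84 on the log2 scale (edgeR BH-adjusted p = 0.0342). Il1a, the membrane-associated form of IL-1, had 0, 0.580 and 0.235 scaled CPM in IWAT and 10.9, 3.08 and 1.51 in EWAT. The lowest EWAT library was above the highest IWAT library, and the change was -4.14 ± 0.94 (edgeR BH-adjusted p = 0.0294), a fitted value that rests in IWAT on 0, 13.1 and 4.06 expected counts. Il1b was also lower in IWAT than in EWAT without passing: 1.11, 1.61 and 2.06 scaled CPM in IWAT against 28.3, 12.8 and 5.96 in EWAT, and -3.29 ± 1.03 (edgeR BH-adjusted p = 0.0631). The anti-inflammatory ligand Il10 had 1.31, 0.758 and 1.71 scaled CPM in IWAT and 1.90, 2.40 and 5.03 in EWAT, again with no overlap, and a difference of -1.31 ± 0.61 (edgeR BH-adjusted p = 0.177).

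The IL-10 and IL-4 receptor chains were lower in IWAT. Il10ra, which binds IL-10 and is carried by macrophages and lymphocytes, had 32.6, 31.4 and 36.1 scaled CPM in IWAT and 74.2, 96.8 and 97.7 in EWAT, a change of -1.42 ± 0.27 (edgeR BH-adjusted p = 0.0190). Il10rb, its partner chain, had 49.5, 53.6 and 75.6 in IWAT and 108.4, 103.0 and 162.5 in EWAT, a change of -1.06 ± 0.26 (edgeR BH-adjusted p = 0.0346). For both genes the depots were well separated, and the spread within IWAT was narrower for Il10ra. Il4ra had 51.7, 71.8 and 106.2 scaled CPM in IWAT and 378.8, 140.1 and 161.0 in EWAT, a change of -1.57 ± 0.43 (edgeR BH-adjusted p = 0.0473). Its EWAT mean was pulled up by EWAT 1, and without that library the change was -0.98 and the adjusted p 0.151, the highest over its 22 alternatives (lowest 0.00568). Reads of Il10rb may be shared with the annotated gene Gm21970, which overlaps it on the same strand, and Il1a, Il4ra and Il34 overlap transcripts annotated on the opposite strand.

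The IL-17 family had 7 tested genes, the receptor chains Il17ra, Il17rb, Il17rc, Il17rd and Il17re and the ligands Il17d and Il17f. Il17rb, Il17rc and Il17rd were called higher in IWAT than in EWAT, and 0 of the 7 were called lower. Il17rc, which pairs with Il17ra to bind IL-17A and IL-17F, had 41.8, 24.6 and 21.9 scaled CPM in IWAT and 10.7, 9.88 and 8.55 in EWAT (1.60 ± 0.30, edgeR BH-adjusted p = 0.0197). Il17rd, a membrane protein also known as Sef that restrains growth factor signals, had 13.6, 22.6 and 14.3 in IWAT and 5.57, 8.34 and 5.13 in EWAT (1.41 ± 0.29, edgeR BH-adjusted p = 0.0223). Il17rb, the receptor chain for IL-25, had 2.68, 2.68 and 1.65 in IWAT and 0.524, 0.971 and 0.635 in EWAT, from 11.02, 17 and 13 counts there (1.72 ± 0.47, edgeR BH-adjusted p = 0.0463). In all 3 genes the lowest IWAT library stood above the highest EWAT library. Il17ra, the shared chain, went the other way without passing (-0.90 ± 0.28, edgeR BH-adjusted p = 0.0647), and the TPM ratio of Il17rc to Il17ra was 1.58 to 4.56 in IWAT and 0.246 to 0.721 in EWAT. Il17rb overlaps Actr8 on the other strand, and the strand setting of the counting was not given in the sources used here, so reads of the 2 genes may not be separated.

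Il15ra, which presents IL-15 to neighbouring cells, had 30.5, 36.9 and 20.5 scaled CPM in IWAT and 7.19, 12.1 and 6.84 in EWAT. The depots did not overlap, and Il15ra was higher in IWAT by 1.75 ± 0.30 (edgeR BH-adjusted p = 0.0163). Its ligand Il15 had 7.39, 6.92 and 6.88 in IWAT and 4.48, 11.02 and 7.72 in EWAT, which overlapped (-0.13 ± 0.40, edgeR BH-adjusted p = 0.872). The TPM ratio of Il15ra to Il15 was 4.95 to 8.18 in IWAT and 1.64 to 2.32 in EWAT. Il34 had 15.4, 16.2 and 12.2 in IWAT and 1.90, 6.34 and 3.76 in EWAT (1.87 ± 0.46, edgeR BH-adjusted p = 0.0348), again with no overlap. The IL-36 receptor Il1rl2 had 77.9, 77.3 and 28.7 in IWAT and 26.3, 27.5 and 22.1 in EWAT (1.28 ± 0.34, edgeR BH-adjusted p = 0.0430), so that IWAT 3 lay just above the EWAT libraries.

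**Figure D3:**
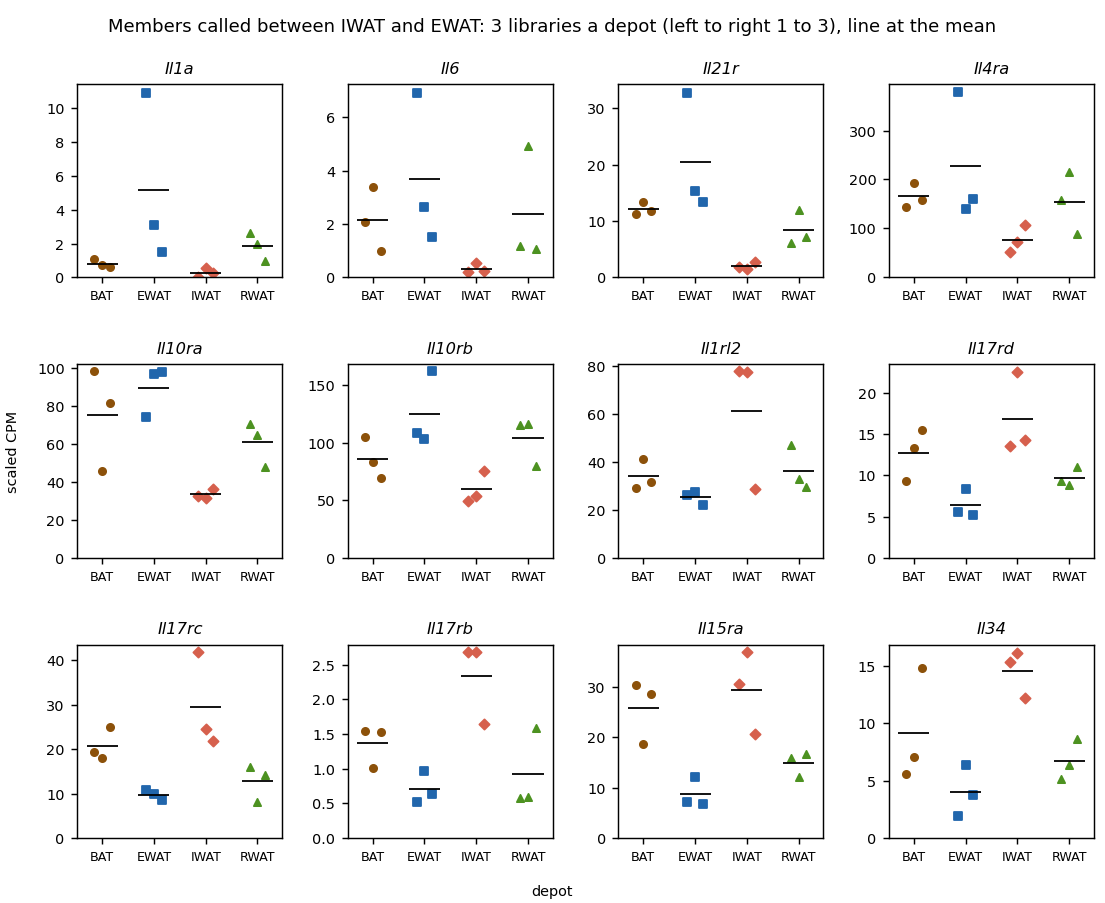
Scaled CPM of the 12 members called between IWAT and EWAT, in the 4 depots, with 1 point a library and a line at the depot mean. For Il21r, Il10ra and Il6 the IWAT points lie at the bottom. For Il15ra, Il17rc and Il34 the EWAT points do, apart from overlap with RWAT for Il17rc and Il34, and with BAT for Il34.

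By overlap of the libraries alone, 12 tested members were higher and 18 lower in every IWAT library than in every EWAT library, with 17.3% and 15.1% of all genes doing so. On the TPM scale the counts were 10 and 6, the opposite balance. No share over all genes was computed on that scale, which shifts between libraries for all genes. TPM counts, here and in the pairs below, therefore say nothing about the members as a set. The 18 lower in scaled CPM include Il2rg, Il7r, Il13ra1, Il17ra, Il1r1, Il1b, Il10, Il18rap, Il27 and Il18bp beside the 6 called genes. The largest changes that did not pass were, after Il1b, the IL-7 receptor Il7r at -2.23 ± 0.79 (edgeR BH-adjusted p = 0.0894) and the decoy receptor Il1r2 at 2.19 ± 0.78 (0.0910). Il7r had 2.42, 12.8 and 31.1 scaled CPM in IWAT and 46.2, 45.4 and 126.3 in EWAT. Il1r2 had 24.1, 20.9 and 4.94 in IWAT and 4.57, 4.57 and 1.81 in EWAT. In IWAT both were uneven, with IWAT 3 the highest for Il7r and the lowest for Il1r2. Besides Il1b and Il17ra, the members nearest to the threshold were Il2rg, Il13ra1 and Il6st, with adjusted p of 0.0634, 0.0662 and 0.0800 in the edgeR test. Of the other members fixed for description, Il33, Il18, Il15, Il6ra and Il2rb had adjusted p of 0.911, 0.812, 0.872, 0.402 and 0.781 in that test and did not pass.

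Sequences just before the transcription start are shown for the called ligands and for the called receptor with the smallest p in each direction, since these members moved between the same depots. They are the 250 bases before the start in the RefSeq promoter table of build GRCm38.p6, which held 66 of the 83 member symbols and 9 of the 12 called members (not Il34, Il10ra and Il10rb). Letter patterns were searched on both strands: AP-1 as TGANTCA, STAT as TTCNNNGAA, NF-kappaB as GGANTTTCC, ETS as GAGGAAGT and C/EBP as TTGNGCAA. Matches are in capitals.
Il6 (chr5:30012864-30013113, plus strand): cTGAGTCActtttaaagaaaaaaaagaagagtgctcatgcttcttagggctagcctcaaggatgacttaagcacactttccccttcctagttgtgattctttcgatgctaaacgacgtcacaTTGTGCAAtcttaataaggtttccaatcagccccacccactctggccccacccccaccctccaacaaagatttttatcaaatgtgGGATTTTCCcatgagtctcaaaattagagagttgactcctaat
Il1a (chr2:129309973-129310222, minus strand): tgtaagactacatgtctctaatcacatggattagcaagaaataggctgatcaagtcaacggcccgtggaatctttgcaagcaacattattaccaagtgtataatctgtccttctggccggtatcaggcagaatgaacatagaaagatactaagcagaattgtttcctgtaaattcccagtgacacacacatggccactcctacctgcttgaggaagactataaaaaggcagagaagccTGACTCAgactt
Il21r (chr7:125603179-125603428, plus strand): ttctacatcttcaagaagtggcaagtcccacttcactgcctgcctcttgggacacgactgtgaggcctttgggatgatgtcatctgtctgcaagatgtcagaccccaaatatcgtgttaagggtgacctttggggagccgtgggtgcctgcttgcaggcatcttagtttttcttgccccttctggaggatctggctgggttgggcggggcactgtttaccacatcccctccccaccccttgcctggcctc
Il15ra (chr2:11705043-11705292, plus strand): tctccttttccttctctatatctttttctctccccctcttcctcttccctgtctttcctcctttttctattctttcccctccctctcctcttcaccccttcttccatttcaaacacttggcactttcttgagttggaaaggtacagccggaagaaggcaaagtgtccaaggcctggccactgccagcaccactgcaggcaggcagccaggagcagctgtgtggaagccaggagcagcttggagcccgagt
The Il6 window held an AP-1 pattern at -249 to -243 from the start, a C/EBP pattern at -128 to -121 and an NF-kappaB pattern at -43 to -35. The Il1a window held an AP-1 pattern at -12 to -6. The windows of Il21r and Il15ra held none of these patterns. The promoter table held 2 starts for Il15ra, and only the first was searched and shown. Over all 32851 promoters in the table, 6.75% held the AP-1 letters, 7.02% the STAT letters, 1.07% the NF-kappaB letters, 2.44% the ETS letters and 2.61% the C/EBP letters. Of the 9 called members with an entry, 3 held AP-1 letters (Il6, Il1a and Il17rb), 2 NF-kappaB letters (Il6 and Il1rl2), 1 C/EBP letters (Il6), and 0 STAT or ETS letters. A match describes letters only.

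Several members lie next to each other in the genome (GRCm38, GENCODE M21). Il4ra (chr7:125552120-125579474) and Il21r (chr7:125603429-125633570) are neighbours on the plus strand within 81.5 kb, and both were lower in IWAT. Il15ra (chr2:11705290-11734317) lies beside Il2ra in a span of 91.5 kb, but Il2ra, the IL-2 receptor alpha chain, had 3.596, 5.09 and 3.77 scaled CPM in IWAT and 4.90, 3.94 and 1.71 in EWAT (0.24 ± 0.43, edgeR BH-adjusted p = 0.761). Il17rc lies beside Il17re within 24.7 kb on chromosome 6, and Il17re, at a mean of 0.436 TPM, gave 0.64 ± 0.92 (edgeR BH-adjusted p = 0.700).

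The largest group of neighbours is 6 receptors of the IL-1 family within 477.6 kb of chromosome 1 (40074079 to 40551705), all on the plus strand, in the order Il1r2, Il1r1, Il1rl2, Il1rl1, Il18r1 and Il18rap. These genes did not share a direction between IWAT and EWAT. Values were positive for Il1r2 (2.19), Il1rl2 (1.28) and Il1rl1 (1.65), and Il1r1, Il18r1 and Il18rap had -0.79, -0.24 and -1.50, with Il1rl2 alone past the threshold. Il1rl1 and Il18r1, the IL-33 and IL-18 receptors, are direct neighbours, and in BAT 2 they took opposite places: 164.3 scaled CPM for Il1rl1, the highest of 12 libraries, and 1.12 for Il18r1, the lowest. In BAT 1 and BAT 3, Il1rl1 had 20.8 and 23.0 scaled CPM and Il18r1 15.4 and 5.37.

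**Figure D4:**
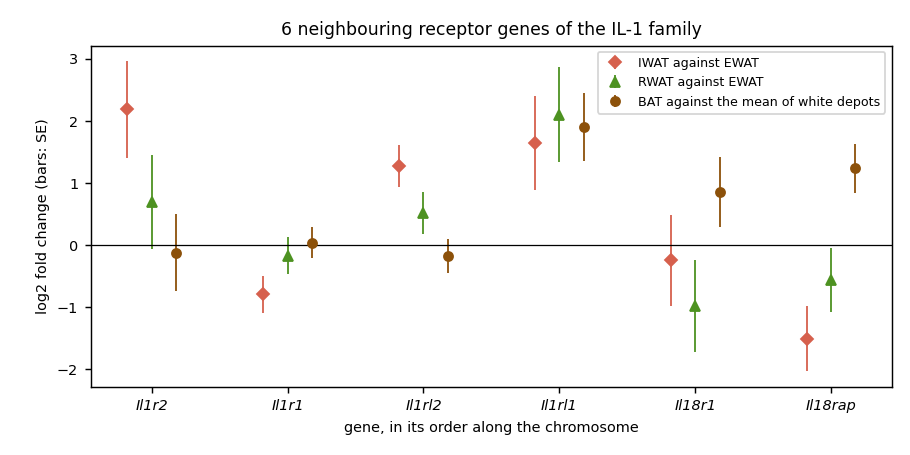
Log2 fold changes with bars of 1 SE for the 6 neighbouring IL-1 family receptor genes, in chromosome order, for 3 comparisons. Il1r2 and Il1rl2 are positive in IWAT against EWAT while Il1r1 between them is negative, and Il18rap is negative there but positive in BAT against the white depots.

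Partner genes outside the naming rule of the set were taken from 3 lists. Between IWAT and EWAT, 9.03% of all genes were called and 29.7% had an unadjusted p below 0.05. Of 15 JAK, STAT and SOCS genes, 2 rose in IWAT against EWAT: the transcription factors Stat5a (0.79 ± 0.22, edgeR BH-adjusted p = 0.0453) and Stat5b (0.65 ± 0.17, 0.0431). Of 12 shared cytokine and receptor partners, the leukaemia inhibitory factor receptor Lifr, which pairs with Il6st, rose (1.72 ± 0.38, edgeR BH-adjusted p = 0.0277) and the gp130 cytokine Osm, oncostatin M, fell (-2.35 ± 0.60, 0.0377). On the TPM scale Osm had 0.30 to 0.67 in IWAT and 0.96 to 5.20 in EWAT, and Lifr 34.9 to 60.7 against 11.6 to 14.1. Of 12 genes of IL-1 receptor signalling, 0 were called by edgeR and 4 had an unadjusted p below 0.05, with the inhibitor Nfkbia at -0.95 ± 0.28 (edgeR BH-adjusted p = 0.0576) and the IL-1beta protease Casp1 at -0.89 ± 0.29 (0.0718) as the smallest. In the other 7 comparisons 0 genes of the 3 lists were called.

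The tissue makeup moved with the same pair of depots. The neutrophil list of 8 genes summed to 15.2 to 33.5 TPM in IWAT and 47.3 to 272.2 in EWAT, with EWAT 1, the highest library for Il6, Il1a, Il21r and Il4ra, also the highest for this list. The macrophage and pan-adipocyte sums gave non-overlapping ranges for these depots, as stated above. Lyz2 was the larger part of every macrophage sum, at 4444 to 8396 TPM in EWAT and 987.9 to 1718 in IWAT. Of that list, Lyz2 and Fcgr1 were higher in every EWAT library. Cd163 was lower in every EWAT library (8.24 to 23.1 against 70.9 to 105.1 TPM in IWAT), and the other genes overlapped on the TPM scale. That scale was shifted down in EWAT 2 (-0.77 on a log2 scale) and up in IWAT 2 (0.52), so overlap in TPM does not settle whether these markers overlap in scaled CPM. Lyz2, Fcgr1 and Cd163 were named after their values were seen. Mesothelial markers summed to 21.4 to 85.9 TPM in EWAT and 1.91 to 2.99 in IWAT. Of these 28 macrophage, neutrophil and mesothelial markers, 0 were at 0 in all libraries. The part of these cell types in the member differences was not tested.

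In brown fat, no member passed the test against the mean of the 3 white depots: 0 of 52 by edgeR, where 0.0528% of all genes passed, with 12 members at an unadjusted p below 0.05 (4.66% of all genes), 11 of these higher in BAT and 1 lower (3.68% and 0.977% of all genes). DESeq2 called 3 (Il12rb1, Il2rb and Il18bp, of 180 genes in all) and limma-voom 0. The median log2 fold change of the tested members was 0.25, against 0.01 over all genes, and 37 of 52 were positive. The 4 smallest p belonged to the receptor chains Il12rb1, Il2rb and Il2rg and the IL-18 antagonist Il18bp.

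Il12rb1, the receptor chain shared by IL-12 and IL-23, had 3.14, 0.760 and 8.38 scaled CPM in BAT and 0.0758 to 0.952 in the 9 white libraries, a difference of 3.18 ± 0.55 (edgeR BH-adjusted p = 0.123). Il2rb, the beta chain of the IL-2 and IL-15 receptors, had 51.4, 2.18 and 15.01 in BAT and 1.52 to 9.22 in white fat (2.52 ± 0.59, edgeR BH-adjusted p = 0.195). Il18bp had 23.3, 6.59 and 33.2 in BAT and 5.17 to 9.38 in white fat (1.61 ± 0.34, edgeR BH-adjusted p = 0.160). In each gene BAT 1 and BAT 3 lay above all 9 white libraries and BAT 2 lay among them. Il2rg had 53.5, 27.6 and 53.8 in BAT (1.00 ± 0.28, edgeR BH-adjusted p = 0.351) and, unlike these, was nearly as high in EWAT 1 at 42.0. Il12rb2, the IL-12 signalling chain, had 4.90, 0.811 and 2.85 scaled CPM in BAT. Il18rap, the accessory chain of the IL-18 receptor, had 20.6, 4.26 and 10.95. For both, BAT 2 was likewise the lowest BAT library.

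Leaving out BAT 2 changed this comparison. Without it edgeR called 5 members, Il12rb1, Il12rb2, Il18rap, Il2rb and Il18bp, and 223 genes in all, against 10 in the full data. The adjusted p of Il2rb was then 0.00644, the lowest over its 21 alternatives (highest 1.00), and its difference ran from 1.11 to 3.06 over them. With BAT 2 and EWAT 1 both left out, 3 members were called, and without BAT 3 or without RWAT 1 and RWAT 3, 0 were. Il1rl1 behaved in the opposite way: its difference of 1.91 ± 0.55 (edgeR BH-adjusted p = 0.385) rested on 164.3 scaled CPM in BAT 2, and BAT 1 and BAT 3 lay inside the white range of 6.16 to 61.2.

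A list of 14 T and natural killer cell markers summed to 124.2, 17.1 and 41.2 TPM in BAT 1, BAT 2 and BAT 3, against 10.8 to 27.8 in the 9 white libraries. BAT 2 was thus the lowest BAT library in these markers, as it was for Il12rb1, Il2rb, Il2rg, Il12rb2 and Il18rap. The summed progenitor and fibroblast list was highest of all libraries in BAT 2, at 9050 TPM against 1534 to 6330 in white fat. Most of that sum was collagen, Col3a1 at 5617 and Col1a1 at 2605 TPM, both highest in BAT 2. The other genes of the list, Pdgfra, Dpp4, Pi16, Cd34, Dcn and Ly6a, were each higher in IWAT 2 than in BAT 2. The part of either cell type in the member differences was not tested. Among the partners, the transcription factor Stat2 (1.44 ± 0.25, edgeR BH-adjusted p = 0.123) and the feedback inhibitor of cytokine signals Socs1 (2.01 ± 0.42, 0.163) had the 2 smallest p of the JAK, STAT and SOCS list and did not pass.

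**Figure D5:**
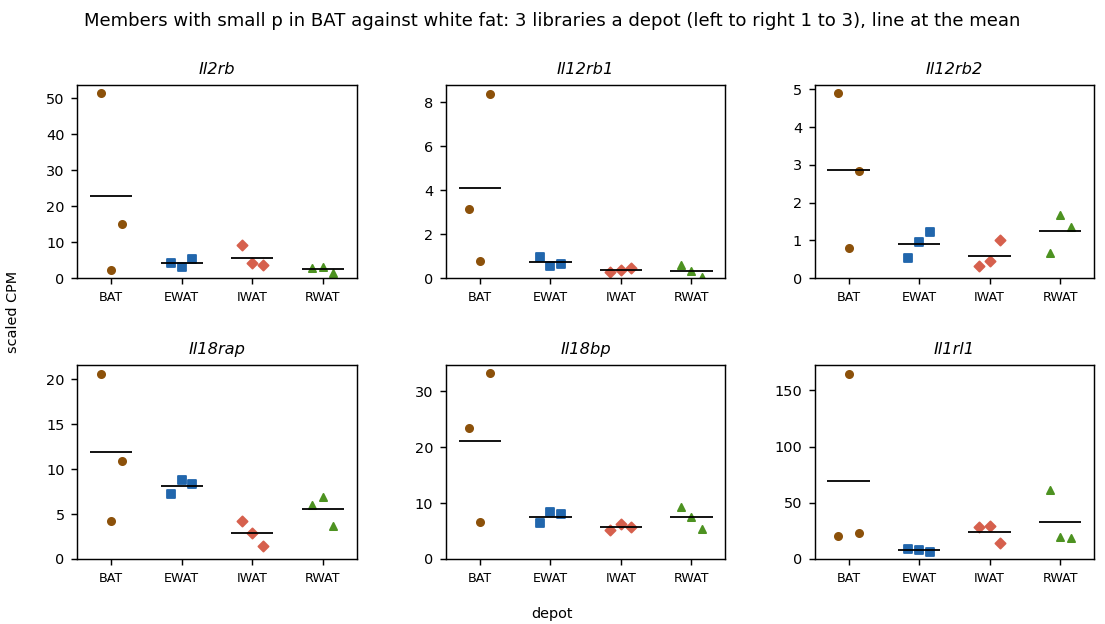
Scaled CPM of 6 members in the 4 depots, 1 point a library, with a line at the depot mean. BAT 1 and BAT 3 stand above the white libraries for Il2rb, Il12rb1, Il12rb2, Il18rap and Il18bp while BAT 2 does not, and for Il1rl1 BAT 2 alone stands apart at 164.3.

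Against single white depots, with all 12 libraries, BAT gave no calls by edgeR either, but some without BAT 2. Against EWAT 0 of 52 members passed (0.0845% of all genes), with 12 at an unadjusted p below 0.05 (9.41%). DESeq2 called 4 (of 477 genes in all) and limma-voom 0. In this pair 7 members were higher and 2 lower in every BAT library (5.49% and 5.15% of all genes), or 6 and 1 on the TPM scale. Without BAT 2 edgeR called 3 members against EWAT (Il15ra, Il2rb and Il18bp, of 179 genes in all), and without BAT 3 it called 0. The median log2 fold change of the members in this pair was 0.23, and -0.08 without BAT 1. Il15ra had the smallest p there: its BAT libraries held 30.4, 18.6 and 28.5 scaled CPM, all above EWAT, a difference of 1.57 ± 0.30 (edgeR BH-adjusted p = 0.105). Il1rl1 followed at 3.16 ± 0.79 (edgeR BH-adjusted p = 0.179), with 20.8, 164.3 and 22.9 scaled CPM in BAT, so that BAT 2 stood far above the others. Il17rc and Il17rd came next at 1.096 ± 0.30 and 1.00 ± 0.29 (edgeR BH-adjusted p = 0.216 and 0.231). EWAT held the lowest mean of Il15ra, Il1rl1, Il17rc and Il17rd among the depots. The comparisons of IWAT and of BAT with EWAT share the EWAT libraries.

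Against IWAT, 0 of 52 members passed (0.0264% of all genes), with 17 at an unadjusted p below 0.05 (12.4%). DESeq2 called 8 (of 321 genes in all) and limma-voom 0. In that pair 15 members were higher and 2 lower in every BAT library (8.37% and 7.91% of all genes), or 7 and 3 on the TPM scale, and the higher ones included Il21r, Il10ra, Il4ra, Il2rg, Il6, Il1a and Il1b. Without BAT 2 edgeR called 3 members against IWAT (Il12rb1, Il10ra and Il18bp, of 43 genes in all), and without BAT 3 it called 0. Il2rg differed by 1.73 ± 0.37 and Il10ra by 1.17 ± 0.26 (edgeR BH-adjusted p = 0.234 and 0.241). Against RWAT, 0 of 52 passed (0.0158%), with 6 at an unadjusted p below 0.05 (4.36%). DESeq2 called 2 (of 45 genes in all) and limma-voom 0. Without overlap, 4 members were higher and 2 lower (4.15% and 4.36% of all genes), or 2 and 1 on the TPM scale. Without BAT 2, without BAT 3, and without RWAT 1 and RWAT 3, edgeR called 0 members in this pair. Il12rb1 led with 3.57 ± 0.82 (edgeR BH-adjusted p = 0.991).

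In mean scaled CPM, the retroperitoneal depot lay between EWAT and IWAT for 12 of the 12 members called between those depots, a description of genes chosen for that difference. Against IWAT, 0 of 52 members passed by edgeR (0% of all genes). Of the 52, 22 had an unadjusted p below 0.05 (19.8% of all genes), 15 higher and 7 lower in RWAT (9.63% and 10.1%). DESeq2 called 7 (of 1150 genes in all) and limma-voom 0. In that pair 15 members were higher and 7 lower in every RWAT library (11.0% and 15.2% of all genes). On the TPM scale 2 were higher and 8 lower, with no share over all genes to set beside them. Without RWAT 1 and RWAT 3, edgeR called 0 members and 18 had an unadjusted p below 0.05. Il1b had 10.4, 52.8 and 2.35 scaled CPM in RWAT, all above IWAT, a difference of 3.77 ± 1.04 (edgeR BH-adjusted p = 0.146). Il6 had 1.16, 4.91 and 1.06, also all above IWAT (2.83 ± 0.83, edgeR BH-adjusted p = 0.153). RWAT 2 was the highest of the 3 in both genes and also had the most neutrophil marker RNA of them, at 238.3 TPM, a link that was not tested. Il17rc was lower in RWAT, with 16.1, 8.18 and 14.1 (-1.21 ± 0.30, edgeR BH-adjusted p = 0.136).

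Against EWAT, 0 of 52 members passed (0.00528% of all genes) and 3 had an unadjusted p below 0.05 (4.52%). DESeq2 called 0 members (of 130 genes in all) and limma-voom 0. There 4 members were higher and 5 lower in every RWAT library (3.97% and 3.78% of all genes), or 7 and 0 on the TPM scale. Il21r had the smallest p, at -1.28 ± 0.38 (edgeR BH-adjusted p = 0.662), followed by Il1rl1 at 2.10 ± 0.77 (0.884), whose RWAT libraries held 61.2, 20.0 and 18.8 scaled CPM against 8.86, 8.28 and 6.16 in EWAT. In RWAT 1 and RWAT 3, the libraries with muscle transcripts, Il1rl1 stood at the top and the bottom of its depot, and in 0 of the 22 alternatives, that without both libraries included, did any member pass in this pair.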

How the data were processed

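Total RNA, depleted of ribosomal RNA, was sequenced as single-end reads. The submitters' processing notes name Trimmomatic 0.36, RSEM 1.3.0, DESeq2 1.10.1 and build GRCm38.p4. Aligner, annotation release and strand setting are not given in the sources used here. Tables as deposited hold RSEM expected counts, estimated and not normalized between libraries, and the deposited TPM. TPM served to compare genes with each other, for summed marker and partner levels, for scarce members and for pattern likeness; it entered no test. Expected counts were rounded, passed through filterByExpr in edgeR 4.0.16 (minimum count 10), scaled by TMM (0.846 to 1.14) and fitted with a coefficient for each depot over 12 libraries; the two-sided quasi-likelihood test was BH-adjusted over all 18942 genes in each of 8 comparisons. The biological coefficient of variation was 0.385. No molecular identifiers were described, so floors cover counting error only. The test was checked on simulated data. R 4.3.3, DESeq2 1.42.0 and limma 3.58.1 served the alternatives, which closing paragraphs list. Positions are from GENCODE M21, on GRCm38. Counts that were not whole, to a tolerance of 0.005, occurred in 35 members.

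The members, the lists and the rules were chosen with earlier results of these data known. Named members were those past the threshold in any comparison, the 12 with the highest mean TPM, the 4 with the smallest p in each comparison and 20 fixed genes; from each partner list the 2 with the smallest p and any past the threshold. Members of a depot pair without overlap, ligands near the limit and neighbouring genes were named after their values were seen, as was Il22ra1. Libraries with the same replicate number deviated together (all 3 correlations over 0.1) between BAT and RWAT only, of 6 depot pairs, so the fit without the block was kept.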

Additional observations from a re-analysis of the deposited data

How the results depend on the processing

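Counts of called members were recomputed with RLE and upper-quartile size factors, no low-count filter, a filter of 1 CPM in 3 libraries, DESeq2, limma-voom, a fit of the compared groups alone, a replicate block, each library left out in turn, and BAT 2 with EWAT 1 or RWAT 1 with RWAT 3 left out. Of 40 member values recomputed, those with the 4 smallest p of each comparison and all called ones, 0 reversed; the 4 for any depot have no direction. DESeq2 called 18 members for any depot, 21 for IWAT against EWAT, 3, 4, 8 and 2 for BAT against white fat, EWAT, IWAT and RWAT, and 7 for RWAT against IWAT. Without the filter the counts were 7 for any depot and 2, 1 and 1 for BAT against white fat, EWAT and IWAT. Over all 32271 genes then tested, 548, 79, 70 and 9 were called in the same order. With the replicate block, IWAT against EWAT gave 7 (Il15ra, Il6, Il17rc, Il21r, Il34, Il10ra and Il17rd) and any depot 0, as limma-voom did. Without BAT 2 and EWAT 1 the counts were 4 for any depot, 5 for IWAT against EWAT, and 3 for BAT against white fat and against IWAT; without RWAT 1 and RWAT 3 any depot gave 0. Leaving out each library gave 0 to 8 for any depot, 0 to 16 for IWAT against EWAT, 0 to 5 for BAT against white fat, 0 to 3 for BAT against EWAT and against IWAT, and 0 for the other 3. The cause of these moves was not tested. Between IWAT and EWAT, Il21r passed in 21 of 22 alternatives (adjusted p 6.36e-12 to 0.0543, the last without IWAT 2), Il10ra, Il15ra and Il17rc in 19, Il17rd in 17, Il34 in 16, Il6 in 15, Il1a and Il10rb in 13, Il4ra in 10, Il1rl2 in 9 and Il17rb in 7. Over all genes, that comparison gave 1710 calls, 3780 by DESeq2, 639 with the block and 16 to 2397 with a library left out. Any depot gave 40, then 2421, 11 and 7 to 530 in the same order; BAT against white fat 10, then 180, 2 and 1 to 223; BAT against EWAT 16, then 477, 3 and 1 to 179; BAT against IWAT 5, then 321, 3 and 0 to 43; BAT against RWAT 3, then 45, 1 and 0 to 10; RWAT against EWAT 1, then 130, 1 and 0 to 2; RWAT against IWAT 0, then 1150, 0 and 0 to 2. Depth limits what can be said of the 18 members above 0 but under 0.1 TPM on average and the 9 at 0, and 3 libraries a depot limit every test.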

Other observations

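For each called member, the 5 genes with the most similar pattern over the 12 libraries were listed by Pearson r of log2(TPM + 0.1), among genes with a mean of at least 1 TPM, as a description in which the points share library and tissue makeup. Il10rb was closest to Skap2 (r = 0.995), Dgkz (0.988) and Snx1 (0.986), and Il10ra to AB124611 (0.968), Ctss (0.956) and Cd52 (0.955). Il21r was closest to Gsap (0.941), Ch25h (0.937) and Trem1 (0.926), and Il6 to Gm26529 (0.974), Mex3a (0.970) and Trem3 (0.967). Il1a was closest to Srgn (0.958), Il4ra to Tmem2 (0.969), Il15ra to Tgfbr3 (0.966), Il17rc to Rarres2 (0.967), Il17rd to Adgrd1 (0.972), Il17rb to Cdon (0.935), Il34 to Fign (0.950) and Il1rl2 to Hmgn3 (0.979).

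The extremes of the tested members on the scaled CPM scale were unevenly spread over the libraries. BAT 1 and EWAT 1 held the highest value of 10 members each and BAT 3 of 8, whereas RWAT 3 held the highest of 0. IWAT 1 held the lowest value of 14 members. Il1rn, for example, had 2.03 scaled CPM in IWAT 1, 21.0 in IWAT 2 and 77.2 in IWAT 3.

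Il12a, the p35 chain of IL-12, which did not pass the filter, had 1.29 TPM in RWAT 3 and 0 to 0.24 TPM in the other 11 libraries. Il22ra1, the IL-22 receptor chain, had 8, 12 and 29 counts in EWAT 1, EWAT 2 and EWAT 3, and 0 to 4 counts in each of the other 9 libraries. Il20rb, a receptor chain of the IL-20 group, had 4.43, 3.20 and 4.40 scaled CPM in EWAT and 1.60, 2.28 and 2.63 in BAT, without overlap. These genes were chosen after their values were seen. Il12a and Il22ra1 did not pass the filter in the full data and carry no test there. Il20rb did not pass between BAT and EWAT (-0.88 ± 0.30, edgeR BH-adjusted p = 0.322).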
